A study of Mus musculus with 5 samples.

Results

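The Myc locus held 44 members among the 21270 entries of the SOX11 peak list and 12 among the 2669 entries of the SOX4 peak list. Its members were all peaks with a centre between 60.5 and 63.5 Mb of mouse chromosome 15 (genome build mm9), an interval of 3 Mb around Myc and the long non-coding gene Pvt1. The interval was chosen by the measured peaks themselves, because the bin from 61 to 62 Mb was among the 1 Mb bins with the most SOX4 peaks, so the number of SOX4 peaks in it, and with it the number of shared sites, is a description and was not tested. The study mapped SOX11 and SOX4 binding by chromatin immunoprecipitation and sequencing (ChIP-seq) in primary mouse keratinocytes, the epithelial cells of the epidermis, to find the genes these factors bind directly. All 5 samples came from newborn double knockout (dcKO) mice, with floxed Sox11 (fl/fl) and floxed Sox4 (fl/fl) and Krt14-Cre, labelled as a mixed 129SvEx:C57BL/6 background. By the study's methods that is the background of the floxed mice, which were crossed to an FVB/N line in which a keratin 14 promoter drives Cre, so that both genes are removed from keratinocytes. The SOX11-FLAG group (2 samples) and the SOX4-FLAG group (2 samples) carried a lentivirus with a doxycycline-inducible, FLAG-tagged Sox11 or Sox4, were treated with doxycycline for 24 h and were precipitated with anti-FLAG antibody. The control group was 1 library from dcKO keratinocytes without a stated transduction, titled as input but with IgG as its antibody, and no peak list of it was analysed here. The bound protein was thus a tagged, induced one and not the endogenous factor. Both samples of a factor were combined by the authors in 1 list of coordinates, which has neither peak heights nor read counts, so the depth is unknown, no value has a replicate error, and no difference in the following was tested.

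MYC is a basic helix-loop-helix transcription factor that drives cell growth and proliferation, and in the epidermis it is known for moving basal stem cells towards proliferation and differentiation. Its gene lies in a gene desert, a long stretch with very few protein-coding genes, and is known to be controlled from distal enhancers on both sides, many of them tissue specific. Pvt1, just downstream, is a long intergenic non-coding RNA gene (lincRNA) whose body holds several such enhancers. SOX4 and SOX11 belong to the SoxC group of high-mobility-group factors, which bind short motifs with the core CATTGT or CTTTGT in the minor groove of DNA. AP-1, the FOS and JUN dimers, and TEAD factors, which carry the Hippo pathway effectors YAP and TAZ to DNA, are frequent partners at keratinocyte enhancers.

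Peaks are named here by factor and by their number in the list, 1 being the first line. The sequence at each site was read from the mm9 genome. The following stretches of 61 bases show the best SOX match, in capitals, of the 4 shared peaks that stood earliest in the SOX4 list without lying in the peak printed in full further down, and of the other peaks with a SOX match among the 5 SOX11 peaks nearest to the Myc start. They are given 5′ to 3′ on the strand that carries the match.
SOX4 peak 141 (chr15:61364528-61364588, plus strand): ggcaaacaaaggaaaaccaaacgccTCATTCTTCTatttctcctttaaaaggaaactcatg
SOX4 peak 327 (chr15:61285473-61285533, plus strand): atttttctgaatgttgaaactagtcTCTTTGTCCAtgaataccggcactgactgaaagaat
SOX4 peak 363 (chr15:63084791-63084851, plus strand): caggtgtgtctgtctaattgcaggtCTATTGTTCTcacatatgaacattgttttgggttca
SOX4 peak 515 (chr15:61993752-61993812, minus strand): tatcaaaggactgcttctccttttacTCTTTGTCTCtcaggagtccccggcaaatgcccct
SOX11 peak 1655 (chr15:61910754-61910814, plus strand): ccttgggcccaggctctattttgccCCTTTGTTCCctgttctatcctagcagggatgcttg
SOX11 peak 13829 (chr15:61696290-61696350, minus strand): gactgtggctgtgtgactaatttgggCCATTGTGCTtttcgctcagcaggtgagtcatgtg

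Peak 141 was the earliest SOX4 member, and its best match lacks the exact core, which occurs on the opposite strand to the left of the capitals. Peak 327 had CTTTGT in its match, as did peak 515, whereas the match of peak 363 lacks the exact core, which lies to its right in the same stretch as CATTGT. SOX11 peak 1655 had CTTTGTTC, the sequence of 8 letters in which the SOX core is followed by TC, within a match without mismatch. SOX11 peak 13829, the nearest peak upstream of Myc, had CATTGT in its match and the AP-1 core TGAGTCA to its right.

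Printed whole, on the plus strand, are the SOX11 peak nearest to the Myc start and the shared peak nearest to it, both of 258 bases. Capitals mark the best match to the SOX motif and to the AP-1 motif.
SOX11 peak 15718 (chr15:61830423-61830680, plus strand): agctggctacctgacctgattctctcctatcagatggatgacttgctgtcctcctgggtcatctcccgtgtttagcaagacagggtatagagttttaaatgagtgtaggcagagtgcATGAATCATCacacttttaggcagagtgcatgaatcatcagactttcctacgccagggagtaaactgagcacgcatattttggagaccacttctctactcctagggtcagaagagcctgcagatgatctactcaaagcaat
SOX11 peak 300 (chr15:61914836-61915093, plus strand): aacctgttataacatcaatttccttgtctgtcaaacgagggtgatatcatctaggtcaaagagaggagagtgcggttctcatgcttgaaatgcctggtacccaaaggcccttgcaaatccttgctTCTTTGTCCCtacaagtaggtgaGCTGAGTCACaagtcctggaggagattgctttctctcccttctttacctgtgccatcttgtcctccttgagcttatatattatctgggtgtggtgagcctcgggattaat

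The first of these had 2 matches to the AP-1 motif, of which the more central is in capitals, and no match to the SOX motif. Both AP-1 matches had 1 mismatch and lacked the exact core. The latter had a SOX and an AP-1 match without mismatch, whose first bases lay 23 bp apart.

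No SOX11 or SOX4 peak lay in Myc itself (chr15:61816946-61821929, plus strand, ENSMUSG00000022346.8). Distances are given from its most upstream annotated start, with negative values upstream. The nearest SOX11 peak was at 13.6 kb, beyond the end of the gene, and the nearest SOX4 peak at 98.0 kb. SOX11 peaks were split evenly, with 22 upstream of the Myc start and 22 downstream, and 7 of 12 SOX4 peaks lay upstream. The absolute distance from Myc had a median of 462 kb for SOX11 and 515 kb for SOX4. No member lay in a promoter of a protein-coding gene, set as 1 kb upstream to 100 bp downstream of a start, against 23.3% of all SOX11 peaks and 21.8% of all SOX4 peaks. Of the SOX11 members, 39 of 44 (88.6%, Wilson 95% interval 76.0 to 95.0%) were over 100 kb from any protein-coding start, against 11.7% of all SOX11 peaks. Of the SOX4 members, 11 of 12 (91.7%, 64.6 to 98.5%) were, against 11.9% of all SOX4 peaks. The median distance to the nearest protein-coding start was 330.0 kb for the SOX11 members and 11.5 kb for all SOX11 peaks, and 384.0 kb and 9.87 kb for SOX4. These distances follow in part from the interval, which holds the starts of only 3 protein-coding genes: Fam84b at -1160.3 kb, A1bg, a plasma glycoprotein gene, at -1064.1 kb and Myc. Intervals given with shares cover counting error only.

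**Figure D1:**
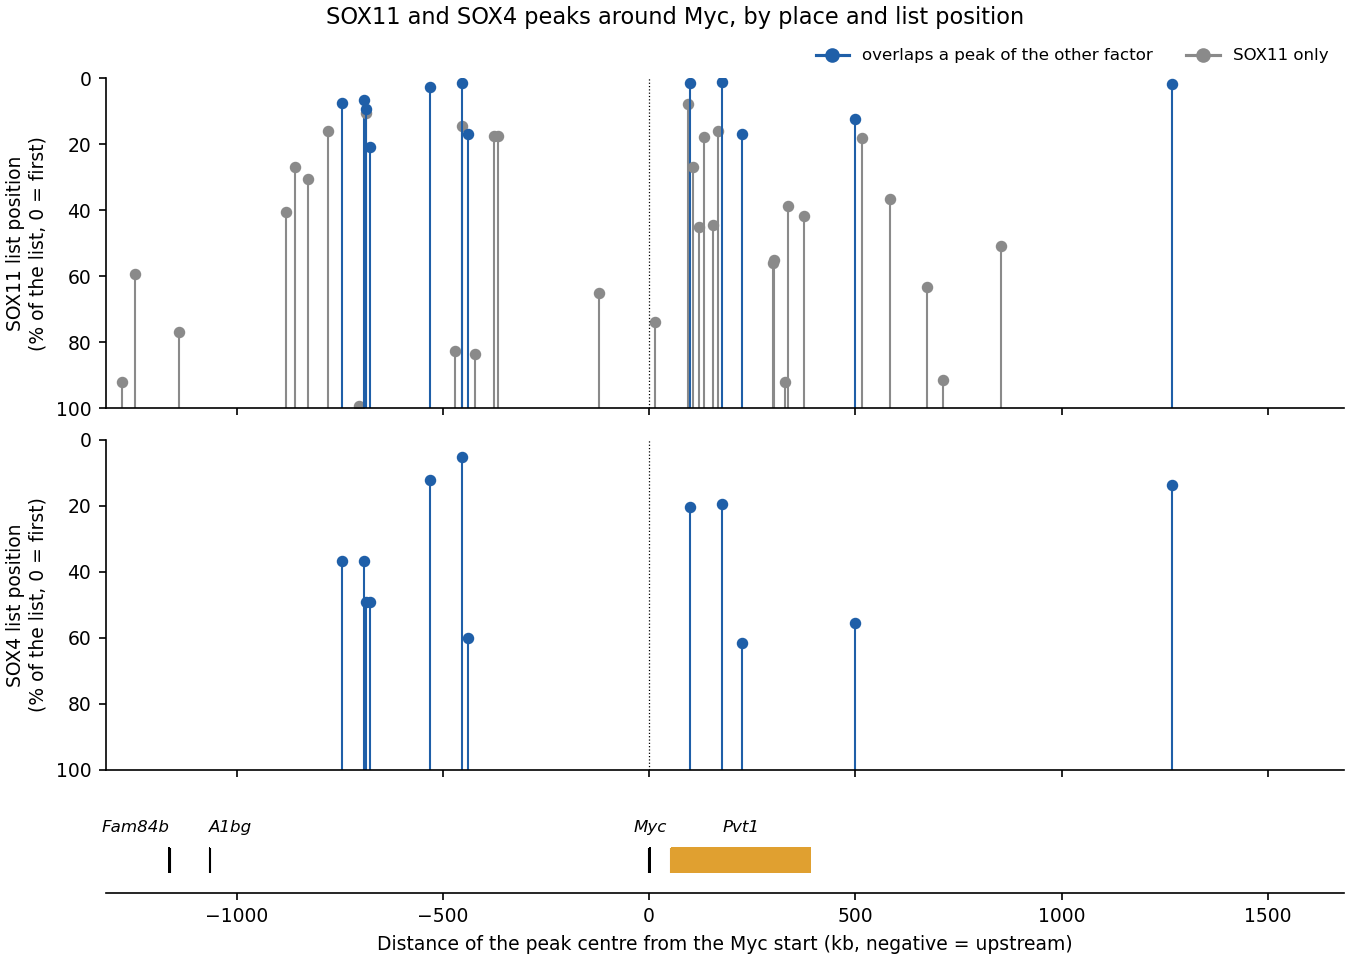
Peaks of the SOX11 list (top) and the SOX4 list (middle) by the distance of their centre from the Myc start in kb (x axis) and their place in the list as a percent of its length (y axis, first line at the top), with Fam84b, A1bg, Myc and Pvt1 drawn below. Blue marks a peak that overlaps one of the other factor and grey a SOX11 peak that does not. The 12 blue SOX11 peaks all stand in the first 20.8% of the list, and no SOX4 peak lies between -438.6 kb and 98.0 kb.

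The SOX4 peaks formed a group far upstream of Myc, a group inside Pvt1 and 2 lone sites farther downstream. The upstream group of 7 SOX4 and 11 SOX11 peaks filled 307.0 kb, from -744.6 to -437.6 kb (1 kb beyond the outermost SOX4 centres). Beside it on the far side, 7 SOX11 and no SOX4 peaks were spread over 572.3 kb. Between the group and Myc, over 437.6 kb, there were 4 SOX11 peaks and no SOX4 peak. The group was bounded by its SOX4 peaks, each of which overlaps a SOX11 peak, so 7 of its 11 SOX11 peaks lay there by construction. SOX11-only peaks numbered 4 in the group, 7 on its far side and 4 between it and Myc.

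Within the upstream group, SOX4 peak 978 was at -743.6 kb and overlapped SOX11 peak 1557. SOX4 peaks 979, 1308 and 1309 followed at -690.5, -685.5 and -675.7 kb and overlapped SOX11 peaks 1385, 1948 and 4423. These 3 sites lay within a bin of 100 kb that held 3 SOX4 and 5 SOX11 peaks, the most SOX4 peaks of any of the 30 such bins. The only annotated gene start near them was that of SNORA42, a small nucleolar RNA gene, 63.1, 58.1 and 48.3 kb away. Farther towards Myc, SOX4 peak 327 was at -531.4 kb and SOX4 peak 141 at -452.4 kb, with SOX11 peaks 547 and 282. SOX4 peak 1601 at -438.6 kb, with SOX11 peak 3596, closed the group. The earliest entries in both lists were thus on the Myc side of the group, at -531.4 and -452.4 kb. Measured to the nearest protein-coding start, the first 4 sites were closer to A1bg, at 320.5 to 388.4 kb, than to Myc, and the other 3 were closer to Myc.

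Pvt1 (chr15:61869542-62209651, plus strand, ENSMUSG00000072566.3) starts 52.6 kb from the Myc start and spans 340.1 kb of the 3000.0 kb of the interval. Inside Pvt1 were 14 of 44 SOX11 peaks (31.8%, 20.0 to 46.6%) and 3 of 12 SOX4 peaks (25%, 8.89 to 53.2%), all in its introns. SOX4 peak 544, with SOX11 peak 300, was at 98.0 kb, 45.3 kb from the Pvt1 start. SOX4 peak 515, with SOX11 peak 258, was at 176.8 kb. SOX4 peak 1646, with SOX11 peak 3597, was at 224.8 kb and 9.2 kb from the start of H2afy3, a pseudogene inside Pvt1. SOX11 peaks 258 and 300 were the first and the third earliest of the interval. The bin of 100 kb from 83.1 to 183.1 kb held 8 SOX11 peaks, the most of any bin, and 2 of the SOX4 peaks. In the second part of Pvt1, from 283.1 to 383.1 kb, 5 SOX11 peaks stood with no SOX4 peak, and their list numbers ran from 8216 to 19597.

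**Figure D2:**
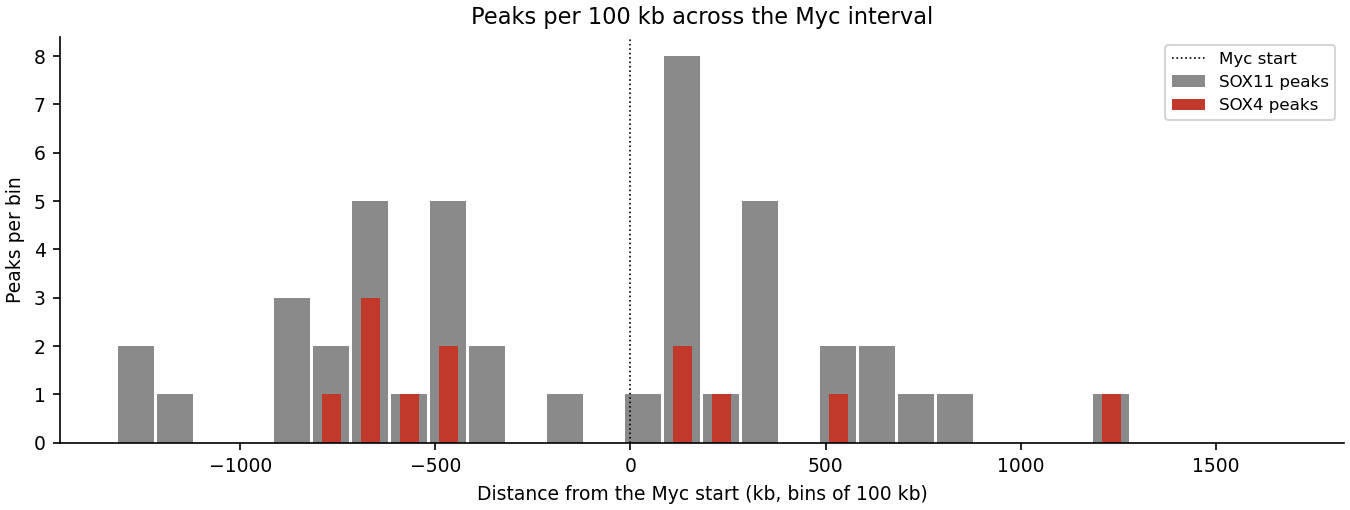
Number of SOX11 peaks (grey) and SOX4 peaks (red) in each bin of 100 kb of the 3 Mb interval (y axis), by distance from the Myc start in kb (x axis, dotted line at the start). The tallest bin, with 8 SOX11 and 2 SOX4 peaks, lies in Pvt1, and the bin with the most SOX4 peaks, 3, lies from -716.9 to -616.9 kb.

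Close to Myc the SOX11 peaks were few and late in the list. The nearest, SOX11 peak 15718 at 13.6 kb between Myc and Pvt1, stood at 73.9% of the list, and the nearest upstream, SOX11 peak 13829 at -120.6 kb, at 65.0%. Neither overlapped a SOX4 peak. The next were SOX11 peaks 1655, 300 and 5675 at 93.9, 98.0 and 107.4 kb, in Pvt1, at 7.78%, 1.41% and 26.7% of the list. Of these 5, only SOX11 peak 300 overlapped a SOX4 peak.

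Downstream of Pvt1, over 1290.3 kb, there were 7 SOX11 and 2 SOX4 peaks. SOX4 peak 1480, with SOX11 peak 2623, was at 498.4 kb. SOX4 peak 363, with SOX11 peak 350, was at 1267.8 kb, alone in the last 414.7 kb before it, the longest gap between SOX11 members, and 551.2 kb from the nearest protein-coding start, that of Gsdmc, a gasdermin gene. It was the last member of both factors. The first was SOX11 peak 19596 at -1276.6 kb, and the first of SOX4 was peak 978. Just outside the interval, the nearest SOX11 peaks were number 18745 at -1797.9 kb and number 7655 at 1737.8 kb, and the nearest SOX4 peaks were number 466 at -2162.1 kb and number 2397 at 1835.7 kb. The closest to an edge were SOX11 peak 19596, 40.4 kb inside it, and SOX11 peak 7655, 54.7 kb outside it, distances near the median gap of 31.0 kb between SOX11 members.

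All 12 SOX4 members (100.0%, 75.8 to 100.0%) overlapped a SOX11 peak by at least 1 bp, against 94.5% of all SOX4 peaks, so that complete overlap was near the background. Of the SOX11 members, 12 of 44 (27.3%, 16.3 to 41.8%) overlapped a SOX4 peak, against 11.9% of all SOX11 peaks. The choice of an interval rich in SOX4 peaks fixes part of this share. Each SOX4 peak overlapped 1 SOX11 peak, and the centres of the pairs were 1 to 79 bp apart, farthest for SOX4 peak 363 and closest for SOX4 peak 1309. SOX4 entries were all 340 bp wide and SOX11 entries 258 bp.

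The shared sites stood early in the SOX11 list. The 12 shared SOX11 peaks were numbers 258, 282, 300, 350, 547, 1385, 1557, 1948, 2623, 3596, 3597 and 4423, with a median of 1471, and all lay in the first 5317 lines of the list, the first of 4 equal parts. The other 32 SOX11 members ran from 1655 to 21104, with a median of 9137, and 9 of them were in those 5317 lines. The 5 earliest SOX11 members were all shared. Over the whole list the same order was seen, with a median of 1971.5 for the 2522 shared peaks and 11652.5 for the 18748 others. Of all shared peaks, 1893 of 2522 were in those 5317 lines, and of all others 3424 of 18748. Of the 4 parts, in order, 35.6%, 6.51%, 3.14% and 2.18% of the peaks overlapped a SOX4 peak. Among the SOX4 members the list numbers ran from 141 to 1646 of 2669, with a median of 978.5, and none was in the last of 4 equal parts.

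What the order of the lists stands for is not stated in the sources used here. Neither list was in plain genome order, but each was a chain of blocks within which peaks followed genome order, 518 blocks in the SOX11 list and 264 in the SOX4 list. The blocks lengthened down the list, from a median of 6 peaks in the first of 4 equal parts of the SOX11 list to 133 in the last, and from 3 to 16 in the SOX4 list. Numbers within a block therefore follow position along the genome and give no finer order. SOX11 peaks 3596 and 3597, which lie on opposite sides of Myc at -438.5 and 224.8 kb, were neighbours in a block of 42 peaks, and SOX4 peaks 1308 and 1309 were neighbours in a block of 27. SOX11 peaks 258, 282, 300 and 350 each lay in a block of their own of 3 to 5 peaks, and SOX4 peak 141 was a block by itself, so their early places do not rest on order within a block.

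The 32 SOX11-only members were spread over every stretch but the Myc gene itself. In the upstream group they were 4 of the 11 SOX11 peaks, SOX11 peaks 21104, 2234, 17576 and 3055 at -703.3, -687.3, -470.9 and -453.2 kb. SOX11 peak 2234 lay between SOX4 peaks 979 and 1308, and SOX11 peak 3055 lay beside the site of SOX4 peak 141. On the far side of the group the 7 SOX11 peaks ran from number 3405 to 19596, with only number 3405 at -777.7 kb among the first 5317 lines. Between the group and Myc, SOX11 peaks 17752, 3688, 3689 and 13829 were at -421.9, -375.6, -366.1 and -120.6 kb, of which 3688 and 3689 stood at 17.3% of the list and in 1 block. In Pvt1, 11 of the 14 SOX11 peaks were without SOX4, the earliest being SOX11 peaks 1655, 3363 and 3763 at 93.9, 166.5 and 133.8 kb. Downstream of Pvt1 they were SOX11 peaks 3858, 7760, 13431, 19470 and 10816, at 515.7 to 853.0 kb. Early SOX11-only sites were thus found beside shared ones as well as apart from them.

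The SOX motif, a pattern of 10 letters searched on both strands with up to 1 mismatch, was found in 25 of the 44 SOX11 members (56.8%, 42.2 to 70.3%) against 47.3% of all SOX11 peaks. It was found in 11 of the 12 SOX4 members (91.7%, 64.6 to 98.5%) against 70.3% of all SOX4 peaks. In sequences of the same length 2 kb away it was in 29.9% for all SOX11 peaks and 37.2% for all SOX4 peaks, and in 17 of the 44 and 4 of the 12 for the members. The interval of each share contains the share over all peaks, here and for the AP-1 and TEAD motifs described next. The SOX4 member without it was peak 979, which still held the exact core. The shared SOX11 members had it in 11 of 12 and the SOX11-only members in 14 of 32 (43.8%, 28.2 to 60.7%), next to 70.3% and 44.2% of all shared and all SOX11-only peaks.

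Most of the matches at the locus were imperfect. Without a mismatch, the SOX motif was in 5 of 44 SOX11 members (11.4%, 4.95 to 24%), as in 11.3% of all SOX11 peaks, but in only 1 of 12 SOX4 members (8.33%, 1.49 to 35.4%), peak 544, next to 26.8% of all SOX4 peaks. The sequence CTTTGTTC was in 1 of 12 SOX4 members, peak 1309, next to 24.3% of all SOX4 peaks, and in 3 of 44 SOX11 members next to 9.53%. The core CATTGT or CTTTGT was more common, in 32 of 44 SOX11 members (72.7%) next to 58.5%, and in 11 of 12 SOX4 members next to 80.6%. Where a match was present in a SOX4 member, the best lay a median of 27 bp from the peak centre, against 23 bp over all SOX4 peaks with a match.

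AP-1 matches were present in 24 of 44 SOX11 members (54.5%, 40.1 to 68.3%) against 41.1% of all SOX11 peaks, and in 7 of 12 SOX4 members (58.3%, 32.0 to 80.7%) against 37.8% of all SOX4 peaks. In sequences 2 kb away they were in 19.0% for all SOX11 peaks and 23.0% for all SOX4 peaks. For the members they were in 7 of 44 and 4 of 12. The exact core TGAGTCA or TGACTCA was in 13 of 44 (29.5%) and 3 of 12 (25%), close to the 28.5% and 26.1% of all peaks, so the higher shares rested on matches that differed from the motif by a letter. Among the SOX11-only members, 18 of 32 (56.2%, 39.3 to 71.8%) had an AP-1 match and 14 of 32 a SOX match, next to 41.8% and 44.2% of all SOX11-only peaks. With exact cores the order was the opposite, 11 of 32 for AP-1 and 21 of 32 for SOX, next to 29% and 55.1% of all SOX11-only peaks. Both motifs were present in 6 of the 12 shared SOX11 members (50.0%, 25.4 to 74.6%), against 26.9% of all shared SOX11 peaks. In those 6 the first bases of the best SOX match and the nearest AP-1 match were 23, 32, 55, 68, 95 and 135 bp apart, with no common spacing. The count fell to 2 when exact cores were asked for, SOX11 peaks 282 and 300, and no share over all shared SOX11 peaks is given for that pair. Taken singly, the exact AP-1 core was in 2 of the 12, next to 25.2% of all shared SOX11 peaks. The exact SOX core was in 11 of the 12, next to 83.6%.

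The TEAD motif was found in 14 of 44 SOX11 members (31.8%, 20.0 to 46.6%) against 20.3% of all SOX11 peaks, and in 5 of 12 SOX4 members (41.7%, 19.3 to 68.0%) against 21.2% of all SOX4 peaks. In sequences 2 kb away it was in 14.5% for all SOX11 peaks and 19.4% for all SOX4 peaks, the latter near the share in the SOX4 peaks themselves. For the members it was in 6 of 44 and 1 of 12. Its core GGAATG was in 14 of 44 and 2 of 12, next to 22.8% and 23.3%. Only SOX4 peak 141 had a TEAD match without mismatch among the SOX4 members, 53 bp from its SOX match. SOX4 peaks 141, 515 and 363 held all 3 motifs. The members were poorer in G and C than the lists, with a median GC content of 46.1% against 51.6% for SOX11 and 43.8% against 51.5% for SOX4, and the part of base composition in these shares was not tested.

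By stretch, SOX matches were present in 8 of the 11 SOX11 peaks of the upstream group, 6 of the 14 in Pvt1 and 6 of the 7 downstream of Pvt1. AP-1 matches were in 5, 9 and 4 of the same peaks and TEAD matches in 3, 5 and 3. These counts, of matches with up to 1 mismatch in 7 to 14 peaks, set no order between the motifs. On the far side of the upstream group SOX and AP-1 were each in 3 of 7, and between the group and Myc each in 2 of 4.

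**Figure D3:**
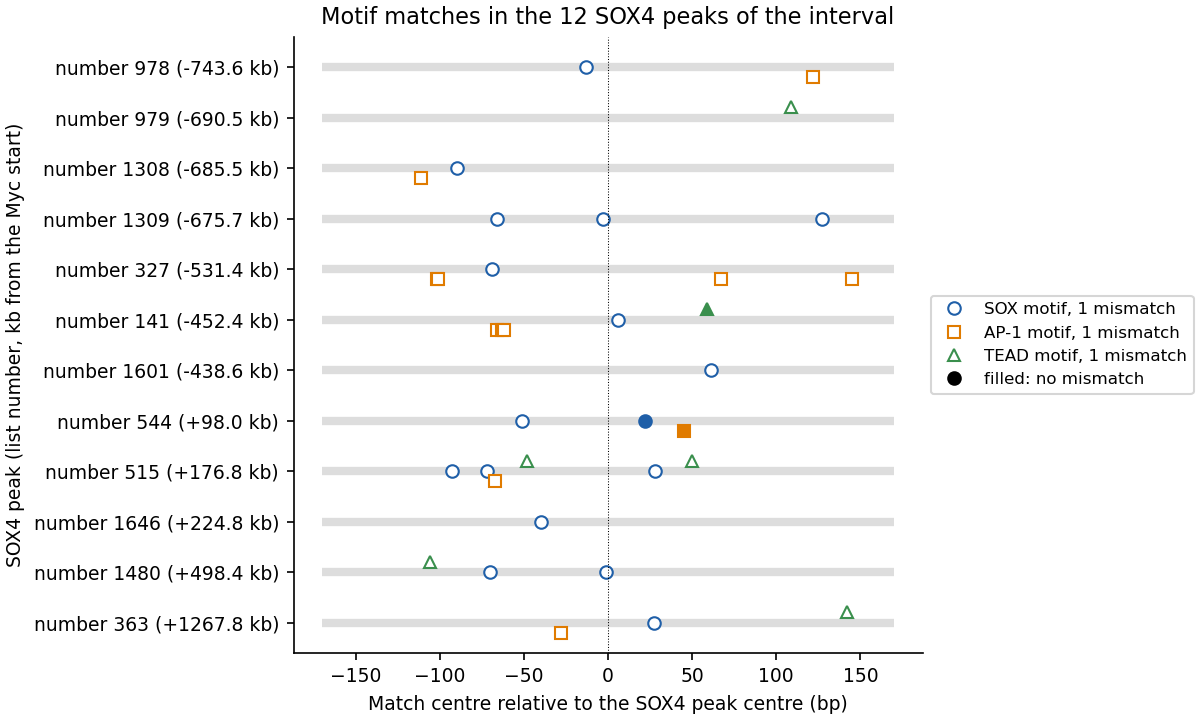
Matches to the SOX (circles), AP-1 (squares) and TEAD (triangles) motifs in the 12 SOX4 peaks, ordered by position, with the distance of the match centre from the peak centre in bp on the x axis and 1 grey bar per peak of 340 bp. Filled symbols have no mismatch: the SOX and AP-1 matches of peak 544 and the TEAD match of peak 141.

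**Figure D4:**
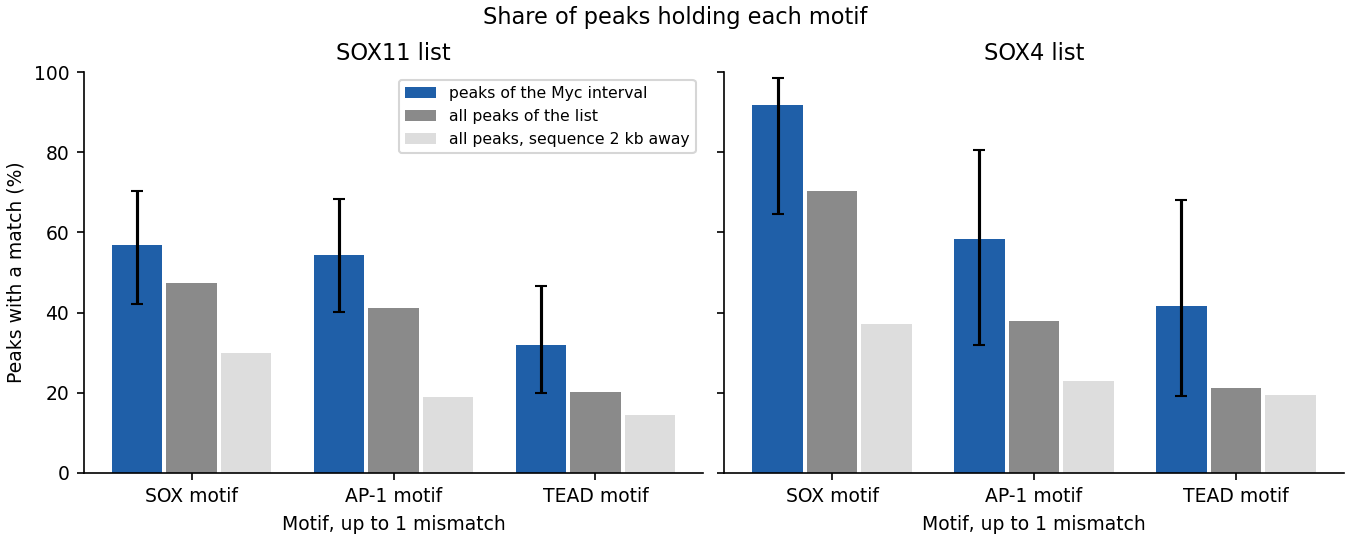
Share of peaks in percent (y axis) that hold the SOX, AP-1 and TEAD motifs with up to 1 mismatch, for the SOX11 list (left) and the SOX4 list (right). Blue bars are the 44 SOX11 and 12 SOX4 members with Wilson 95% intervals, dark grey all peaks of the list, light grey sequences 2 kb from all peaks. The blue bars stand above the dark grey ones for every motif, and each interval contains the dark grey value beside it.

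Across the genome, the interval held 14.7 SOX11 and 4.0 SOX4 peaks per Mb against 8.06 and 1.01 over all chromosomes, values the choice of the interval used. Counted by the nearest protein-coding start, Myc had 30 SOX11 peaks, more than any other of the 10425 genes with a peak, and 7 SOX4 peaks, more than any other of 2267. Because the interval was chosen on its SOX4 peaks, each of which overlaps a SOX11 peak, the rank of Myc here and below is a description. The next were Efna5 with 20 SOX11 peaks, summed over its 2 entries in the annotation, and Epha4, Jmjd1c and Rbms3 with 5 SOX4 peaks each. The stretch nearer to the Myc start than to any other was 1.44 Mb long. Among the 300 other genes with a stretch of 1 Mb or longer the median was 1.0 SOX11 and 0.0 SOX4 peaks and the largest counts 19 and 5. Per Mb of stretch Myc had 20.8 SOX11 and 4.85 SOX4 peaks, and the densest of these 300 genes 14.4 and 3.78. Some genes with shorter stretches were denser than Myc. Zfp36l1 had 18 SOX11 peaks in 0.47 Mb, Actl7b 18 SOX11 and 4 SOX4 peaks in 0.61 Mb, and A1bg 4 SOX4 peaks in 0.58 Mb. Those of A1bg were SOX4 peaks 978, 979, 1308 and 1309 of the upstream group, members of this same interval. The count for Myc turns on which starts are used, since with non-coding starts included only 2 SOX11 and 0 SOX4 members had Myc as the nearest.

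**Figure D5:**
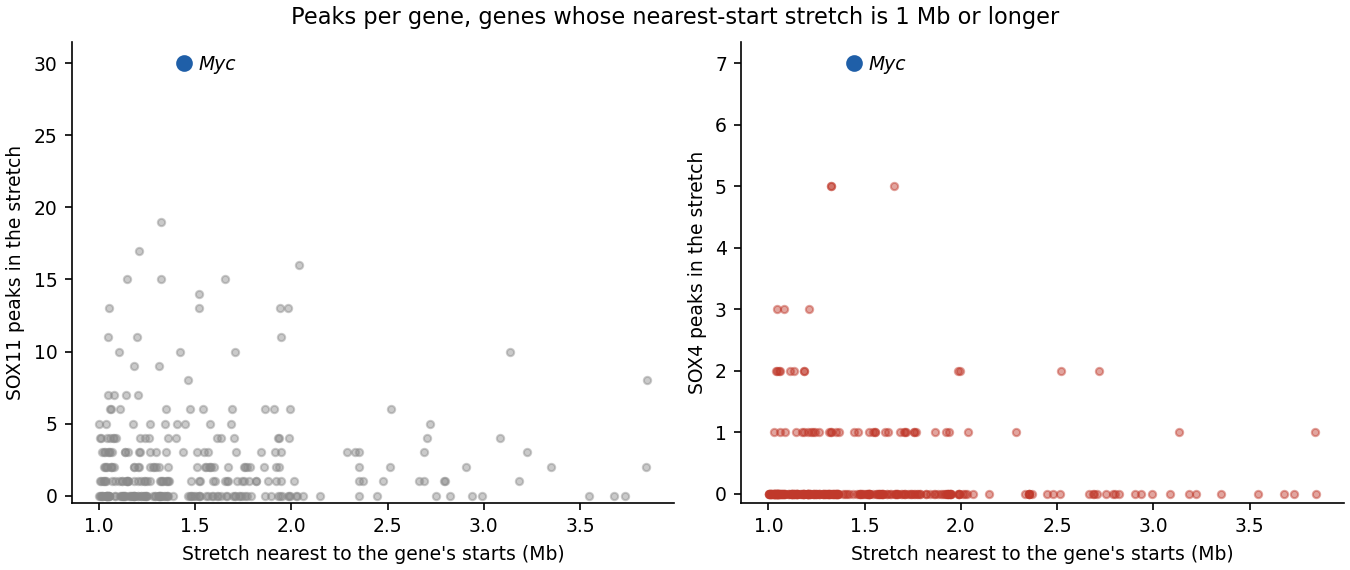
Number of SOX11 peaks (left) and SOX4 peaks (right) on the y axis by the length in Mb of the stretch nearest to the starts of a gene, for Myc (blue) and the 300 other protein-coding genes with a stretch of 1 Mb or longer. Myc, around which the interval was chosen on its SOX4 peaks, stands highest in both, with 30 and 7 peaks at 1.44 Mb.

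The other bins of 1 Mb with at least 8 SOX4 peaks were unlike the Myc bin in their genes. The Myc bin, from 61 to 62 Mb, held 9 SOX4 and 25 SOX11 peaks and the start of 1 protein-coding gene, and its SOX4 peaks were a median of 379.0 kb from a protein-coding start. The bin with the most SOX4 peaks, on chromosome 8, held 10 SOX4 and 23 SOX11 peaks among 38 gene starts, at a median of 1.1 kb. A bin on chromosome 1 held 9 SOX4 and 24 SOX11 peaks among 15 gene starts, at 17.1 kb, and a bin on chromosome 3 held 8 and 34 among 9, at 23.8 kb. Among the 253 bins with a peak and at most 1 protein-coding gene start, the median was 0.0 SOX4 and 2.0 SOX11 peaks, and the next largest counts after the Myc bin were 4 and 19. Since the bin was chosen on its SOX4 count, these ranks are a description. The count also depends on where bins begin. With bins shifted by 0.5 Mb, the fullest bin of the interval held 7 SOX4 peaks.

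By nearest protein-coding start, the partners and antagonists of MYC each had fewer peaks than Myc, the gene at the centre of the chosen interval. MYC works as a dimer with MAX, while the MXD proteins, MXI1, MNT and MGA compete with it for MAX, and MLX and MLXIP form a parallel branch. Of the 11 genes listed besides Myc, 9 had a SOX11 peak for which theirs was the nearest start, against 46.6% of the 22350 protein-coding genes, and 1 had such a SOX4 peak, against 10.1%. The number of SOX11 peaks was at most 4, and the median over all genes with a peak was 1.0. Mxi1 had 4 SOX11 peaks and 1 SOX4 peak, of which 1 SOX11 peak was in its promoter. Max, Mycl1 and Mxd3 had 3 SOX11 peaks each and Mycn, the paralog active in embryonic tissues, had 2, a median of 88.4 kb from its start. Mxd4, Mnt, Mga and Mlxip had 1 SOX11 peak each by this count, and Mxd1 and Mlx had none. Within 10 kb of the gene, whichever start was nearest, 9 of the 11 had a SOX11 peak, against 50.8% of all protein-coding genes, and 1 had a SOX4 peak, against 10.2%. By that count Mlx, Mxd4, Mga, Mycl1 and Mxi1 had 2 SOX11 peaks each, Mxd3 had 4 SOX11 peaks and 1 SOX4 peak, and Mycn and Mxd1 had none. Myc itself had only 1 SOX11 peak and 0 SOX4 peaks within 10 kb, so it did not lead the listed genes there. In promoters, 6 of the 11 had a SOX11 peak, against 23.1% of all protein-coding genes, and 0 had a SOX4 peak, against 2.81%, whereas Myc had neither. The earliest entry in the SOX11 list was number 603 for Mnt, 1309 for Mxi1 and 3049 for Mycn, against 258 for Myc. These are the earliest of 1, 4, 2 and 30 peaks, so they do not compare the genes peak by peak.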

How the data were processed

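ChIP-seq was analysed from 2 deposited peak lists, 1 per factor, each made by the authors from both samples of that factor. According to the methods and the submitters' processing notes, the authors mapped single-end reads of 50 bp to mm9 with Bowtie2, discarded non-nuclear, unmapped and low-quality reads, used Picard to drop duplicates, HOMER (factor style) to call peaks and bedtools to take out blacklisted regions. Versions are not given in the sources used here. The deposited values are 0-based start and end coordinates with no header, height, score or p-value, printed here 1-based, and the depth is unknown.

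Members were peaks with a centre in the interval, assigned to a list through the GEO labels. Overlap meant at least 1 bp. Starts and gene bodies came from GENCODE vM1 and sequence from the NCBIM37 genome (mm9), whose chromosome lengths matched. SOX, AP-1 and TEAD motifs were patterns of 10 letters written after the motif logos of the study, allowed 1 mismatch and searched on both strands. The best match had the fewest mismatches, then the exact core, then lay nearest to the centre, a rule set after matches had been seen. Sequences 2 kb away were searched in the same way. A block was a maximal run of lines in ascending genome order (chromosomes 1 to 19, then X). Shares carry Wilson 95% intervals (scipy 1.17.1, Python 3.11.15), which cover counting error only. Every SOX4 member, the SOX11 peaks overlapping them, the 5 SOX11 peaks nearest to Myc, the 5 earliest, the edge peaks, genes with starts in the interval and a list of MYC network genes were described one by one. Members and lists were chosen with earlier results of these data known, and no test was made. The motif search and the search for blocks were tested on simulated data. A list of the control library was not analysed here.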

Additional observations from a re-analysis of the deposited data

How the results depend on the processing

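Of 47 alternatives to 21 values, 28 kept their value within the spread or within 1.5 times the count, and 19 did not. All 12 shared sites remained shared with centres within 100 bp or with 50% of each peak covered by the other. Restricting the interval to the central 1 Mb left 25 SOX11 and 9 SOX4 peaks. Motif counts changed with the pattern asked for. Without mismatch, SOX11 members with the SOX, AP-1 and TEAD motifs numbered 5, 4 and 5 in place of 25, 24 and 14, SOX4 members 1, 1 and 1 in place of 11, 7 and 5, and shared SOX11 members with both SOX and AP-1 numbered 1 in place of 6. The exact sequence CTTTGTTC left 3 SOX11 and 1 SOX4 members, the exact AP-1 core 13 and 3, the exact TEAD core 2 SOX4 members, and exact cores of both SOX and AP-1 2 shared SOX11 members. Within 100 bp of the centre, 2 SOX4 members held the TEAD motif. With non-coding genes included, Myc was the nearest start of 2 SOX11 and 0 SOX4 members, and 14 and 3 members lay in introns, those of Pvt1. Taking the first number of each block as a peak's place, an alternative chosen after seeing the data, changed the median list position by less than the spread among members. No paired analysis was possible because each list pools the 2 replicates, and for the same reason no replicate could be left out. Without heights or read counts, sites cannot be ranked by signal, and a site missing from the SOX4 list cannot be told apart from one too weak to be listed.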

Other observations

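Several SOX11 members lay close to each other. The closest pair, SOX11 peaks 11862 and 11693 in an intron of Pvt1, had centres 0.675 kb apart, and both held AP-1 and TEAD matches and no SOX match. SOX11 peak 3055, which no SOX4 peak overlapped, lay at -453.2 kb beside the shared peak 282 at -452.4 kb, and both held SOX and AP-1 matches. A TEAD match without mismatch was in 5 of 44 SOX11 members (11.4%, Wilson 95% interval 4.95 to 24%) next to 2.52% of all SOX11 peaks. This share was noticed among many that were computed, was not tested, and was not larger than the background by the same measure for the SOX motif (11.4% next to 11.3%) or the AP-1 motif (9.09% next to 11%). The 5 TEAD matches lay at -6, 81, -100, 119 and 121 bp from the centres of SOX11 peaks 3405, 282, 11693, 17576 and 3858. With up to 1 mismatch, the best TEAD match of the SOX11 members lay a median of 75 bp from the centre. Over all SOX11 peaks with a TEAD match the median was 52 bp.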
